A study of Schizosaccharomyces pombe with 21 samples.

Results

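Fission yeast (Schizosaccharomyces pombe) carrying the HASX set of mutations was compared with wild type (WT) after 1 h in medium without phosphate, over every gene of the deposited count tables. The comparison takes 6 of the 21 RNA-seq libraries of the study, 3 of HASX and 3 of WT, chosen by the strain and the time in their labels. HASX (strain BS1453, mating type h-) has 4 altered genes: the allele asp1-H397A, marked with natMX, and deletions of aps1 (kanMX), siw14 (hygMX) and spx1, the last replaced by ura4MX. The annotation lists spx1 under the name pqr1, which is used below. WT (strain Sp1) is also h- and by its label carries none of these changes, but its libraries of 0 to 4 h held no reads of ura4. Both strains were grown in log phase at 30°C in ePMGT medium with phosphate and transferred to ePMGT without phosphate. Each genotype is 1 strain. HASX at 0 h was not analysed here, so differences present before the transfer and differences that arose in the 1 h after it cannot be told apart. The other libraries, WT at 0, 2 and 4 h and HASX at 2 and 4 h, serve below to place the 1 h values.

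Inositol pyrophosphates are signalling molecules that report the phosphate state of fungal, plant and animal cells. In fission yeast the kinases Kcs1 and Asp1 make them, and the pyrophosphatase domain of Asp1, Aps1 and Siw14 take them apart. The H397A allele of asp1 inactivates the pyrophosphatase domain and leaves the kinase domain intact, and Pqr1 is a ubiquitin ligase with an SPX domain, a fold that binds inositol pyrophosphates. The 3 genes of the phosphate acquisition regulon encode the acid phosphatase Pho1, the phosphate transporter Pho84 and the glycerophosphodiester transporter Tgp1. In phosphate-replete cells, transcription of an upstream long non-coding RNA represses each of them, and early termination of that RNA relieves the repression.

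Polyadenylated RNA was sequenced, and the tables give reads per gene for 6988 identifiers. The HASX libraries held between 14115019 and 18300360 counted reads, and the WT libraries at 1 h between 17481009 and 20429347. Levels are given as CPM, the reads of a gene scaled by the TMM-adjusted size of its library, a unit that compares a gene between libraries and, not being per length, does not compare genes with each other. Pairs of libraries of the same strain correlated at 0.991 to 0.994 in HASX and 0.997 to 0.998 in WT (Pearson's r of log2 CPM across genes), and pairs of different strains at 0.814 to 0.833. The labels call the libraries biological replicates without saying how the cultures were separated, so p-values measure the spread between these libraries. Levels are relative to all mRNA of a library, and in such bulk RNA a change in the number of transcripts per cell cannot be told apart from a change in the make-up of the culture.

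The altered genes were examined first. The deleted gene aps1 had 4.50, 3.74 and 5.12 CPM in HASX, against 188, 179.7 and 169.9 CPM in WT. The deleted gene siw14 had 3.07, 2.86 and 3.72 CPM in HASX, against 149.8, 143 and 139.5 CPM in WT. Both were far below every WT library. The deleted gene pqr1 had 50.0, 51.5 and 48.0 CPM in HASX, against 321, 316 and 323 CPM in WT, a log2 fold change of -2.68 ± 0.14 (± SE), lower in HASX but well above 0. The marker gene ura4, which encodes the orotidine monophosphate decarboxylase of pyrimidine synthesis, had 15923, 9413 and 12494 reads in HASX and 0 reads in each WT library. Against a floor of 3 reads per library that is at least 5030-fold higher in HASX. The mutated gene asp1 had 98.7, 82.8 and 86.3 CPM in HASX, against 54.1, 53.5 and 56.9 CPM in WT, a log2 fold change of 0.7 ± 0.32 that missed the threshold (edgeR adjusted p = 0.0532). The HASX libraries lay above the WT libraries at 1 h, but not all of them above all 12 WT libraries. One HASX library outside the 1 h comparison, replicate 3 of 4 h, stood apart from the others with its label. Its siw14 level was 69.6 CPM, against 2.61 and 1.77 CPM in the other HASX libraries of 4 h. It had 15.3 CPM of aps1 and 306 CPM of asp1, against 4.04 and 5.99 CPM of aps1 and 83.5 and 83.4 CPM of asp1 in the others, and non-coding genes took 4.893% of its reads, against 1.675% and 2.628%. Its pqr1 level, 69.7 CPM, was below the 99.6 and 82.1 CPM of the others. WT at 4 h averaged 248 CPM of siw14, 180 CPM of aps1 and 317 CPM of pqr1, so the library stayed well below WT in all 3 deleted genes. The library is part of the fit of all 21, and values that rest on it are also given without it. Leaving it out changed the call of asp1, which then passed with 0.71 (edgeR adjusted p = 1.25e-05).

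Some genes beside the altered loci also differed. SPNCRNA.1144, a non-coding RNA next to asp1 on the opposite strand, had 121, 119.9 and 102 CPM in HASX, against 0.496, 0.425 and 0.199 CPM in WT. SPNCRNA.620, next to aps1 on the opposite strand, had 88.7, 73.2 and 97.3 CPM in HASX, against 0.361, 0.691 and 0.448 CPM in WT. Both were clearly present in all HASX libraries and near 0 in WT, and how far the inserted markers contribute to these reads was not tested. The gene rrg9, downstream of pqr1 on the same strand, rose by 2.41 ± 0.23, and the leucine tRNA SPBTRNALEU.05 and the 5S rRNA SPRRNA.32 beside siw14 were higher in HASX at under 3 CPM. The next gene downstream of pqr1, ies2, fell by 1.4 on the log2 scale, and rcn1 beside aps1, which encodes calcipressin, fell by 0.61.

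A large share of the transcriptome differed by at least 2-fold between the strains. Of 6234 genes tested, 1472 (23.6%) were higher in HASX and 1371 (22%) lower at an adjusted p under 0.05 and a change of at least 2-fold. At adjusted p under 0.05 alone, the criterion behind "rose" and "fell" below, 2267 genes (36.4%) rose, 2358 (37.8%) fell and 1609 did not pass. Of the 5005 protein-coding genes, the class from which all gene lists below are drawn, 1636 rose and 2188 fell. A list with counts near these shares does not stand apart from its class. The median log2 fold change over all genes was -0.01. By the same criteria as the first count, WT after 1 h without phosphate against WT at 0 h had 48 genes higher (0.77%) and 89 lower (1.43%). Changes of at least 8-fold numbered 410 higher and 178 lower genes.

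The HASX levels were mostly outside anything seen in WT over 4 h of starvation. All 3 HASX libraries lay above all 12 WT libraries for 1342 of the 1472 higher genes (91.2%), where 28.8% of all genes tested did so. They lay below all 12 for 1218 of the 1371 lower genes (88.8%), where 30.2% of all genes tested did so. The genes called were chosen for differing from WT at 1 h, so lying beyond those 3 libraries was largely fixed by the choice. It held for 1462 of the higher and 1367 of the lower genes. The shares over all genes tested are therefore no baseline for the genes called.

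**Figure D1:**
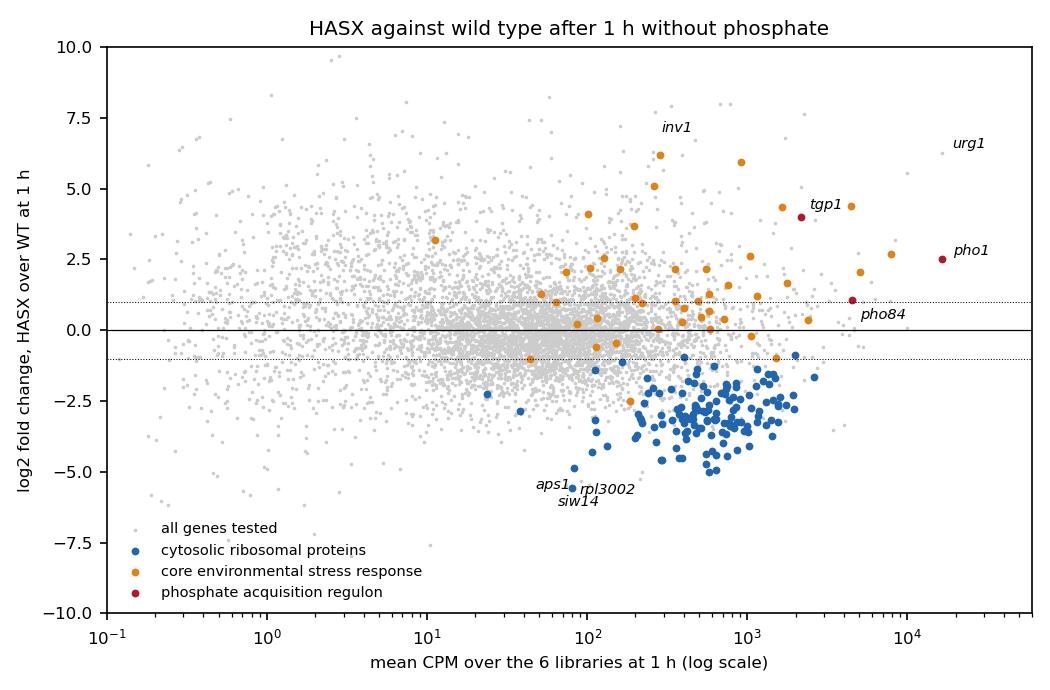
Mean level over the 6 libraries (CPM, log axis) against the log2 fold change of HASX over WT at 1 h for the genes tested, with 3 gene lists in colour and dotted lines at 2-fold. The ribosomal protein genes lie together below the line at 0 and most core environmental stress genes above it. The gene ura4, and the low-count gene SPAPB1A11.02, lie beyond the upper end of the axis and are not shown.

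Among protein-coding genes with a mean of at least 10 CPM, the largest increases were in genes of unlike kinds. The gene ddr48, whose budding yeast namesake is induced by DNA damage and stress, had 4786, 4385 and 4348 CPM in HASX, against 19.5, 25.9 and 22.9 CPM in WT, a log2 fold change of 7.63 ± 0.20. The invertase gene inv1, which is repressed by glucose, had 844, 929 and 1014 CPM in HASX, against 9.24, 9.14 and 8.42 CPM in WT, a log2 fold change of 6.7 ± 0.18. The glycerol dehydrogenase gene gld1 had 629, 655 and 407 CPM in HASX, against 6.85, 7.28 and 9.16 CPM in WT, a log2 fold change of 6.18 ± 0.21. All 3 were far higher in every HASX library than in any WT library, with edgeR adjusted p of 2.53e-16, 2.32e-16 and 1.76e-15. The bZIP transcription factor gene atf21 rose by 7.42 on the log2 scale, the dehydrogenase gene SPCC1739.08c by 7.69, the pyridoxamine 5'-phosphate oxidase gene SPBC725.03 by 6.78 and the adducin gene mug14 by 6.28. The remaining names among the 12 largest increases were ura4, urg1, the uncharacterised SPAC3G6.07 (6.27), wwm3 (8.0) and cum1 (8.0). The 12 largest decreases held 7 ribosomal protein genes, aps1, siw14, the M-factor pheromone gene mfm2 (-5.48), the adenine phosphoribosyltransferase gene apt1 (-5.26) and the sorbose reductase gene SPAC8E11.10 (-4.99). In each of these 24 genes the HASX and WT libraries did not overlap, which the choice of the genes required.

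All 3 genes of the phosphate acquisition regulon were higher in HASX. The acid phosphatase gene pho1 had 23423, 29797 and 31114 CPM in HASX, against 4851, 5381 and 4601 CPM in WT, a log2 fold change of 2.51 ± 0.14 (edgeR adjusted p = 4.19e-12). The transporter gene tgp1 had 3409, 4396 and 4397 CPM in HASX, against 250.4, 282 and 239 CPM in WT, a log2 fold change of 3.98 ± 0.15 (edgeR adjusted p = 1.36e-14). The transporter gene pho84 had 5162, 6528 and 6586 CPM in HASX, against 2904, 3099 and 2768 CPM in WT, a log2 fold change of 1.06 ± 0.13 (edgeR adjusted p = 3.75e-07). The HASX libraries were above the WT libraries at 1 h in each gene, and above all 12 WT libraries in pho1 and tgp1. For pho84 they lay within the WT range, in which WT averaged 6631 ± 104 CPM at 4 h (SD, n = 3). At that time WT had 18460.0 ± 724 CPM of pho1 and 1004 ± 23.8 CPM of tgp1, while WT at 0 h had 1219.8 ± 148 and 53.8 ± 8.78 CPM.

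The upstream non-coding RNAs were measured at low levels in the polyadenylated fraction. The RNA upstream of pho1, nc-pho1, averaged 6.24 ± 0.892 CPM in HASX and 1.13 ± 0.0774 CPM in WT (SD, n = 3 each) and rose by 2.46 ± 0.25. The RNA upstream of pho84, prt2, averaged 19.5 ± 1.91 CPM in HASX and 8.95 ± 1.08 CPM in WT and rose by 1.12 ± 0.15. The RNA upstream of tgp1, nc-tgp1, averaged 16.2 ± 1.56 CPM in HASX and 12.8 ± 0.284 CPM in WT, a log2 fold change of 0.34 ± 0.26 that did not pass (edgeR adjusted p = 0.232), but did in a fit of the 6 libraries of 1 h alone (edgeR adjusted p = 0.0244). All 3 lie upstream on the strand of the gene they precede.

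Of 12 other genes of phosphate and polyphosphate metabolism, 6 rose, 2 fell and 4 did not pass, with a median log2 fold change of 0.24. The glycerophosphodiesterase gene pgc1 rose by 1.65 ± 0.15, with 411 ± 35.4 CPM in HASX and 131 ± 3.84 CPM in WT. The vacuolar alkaline phosphatase gene pho8 rose by 0.89 ± 0.13, the polyphosphate polymerase gene vtc4 by 0.84 ± 0.10 and the phosphate transporter gene pho842 by 0.7 ± 0.13. In none of these did all HASX libraries lie above all 12 WT libraries. The exopolyphosphatase gene ppx1, whose product shortens polyphosphate chains, fell by 1.73 on the log2 scale, with 26.0 ± 0.605 CPM in HASX and 86.4 ± 4.65 CPM in WT. The thiamine-repressible acid phosphatase gene pho4 fell by 1.22, with 76.6 ± 1.59 CPM in HASX and 179 ± 6.02 CPM in WT.

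A list of 14 genes around inositol phosphates holds kinases, phosphatases and a phospholipase, and also pqr1, inositol transporters and phosphatidylinositol synthase. Of these, 4 rose, 7 fell and 3 did not pass. The deleted genes aps1, siw14 and pqr1 are 3 of the 7 that fell, and asp1 is among those that did not pass. The phospholipase C gene plc1, which releases the inositol trisphosphate that the pathway starts from, rose by 0.89 ± 0.16. The inositol polyphosphate kinase gene arg82, the next step, fell by 1.91 on the log2 scale, with 9.79, 10.1 and 10.5 CPM in HASX, against 40.2, 34.4 and 39.6 CPM in WT. Every HASX library of arg82 was below every WT library of any time. The kinase gene ipk1, which makes inositol hexakisphosphate, rose by 0.31 ± 0.13 (edgeR adjusted p = 0.0391), a call that was lost in 4 of the 6 fits that left out 1 of the compared libraries (edgeR adjusted p = 0.0581 to 0.136). The gene kcs1, whose product makes the first pyrophosphate, had 93.0 ± 7.42 CPM in HASX and 109 ± 4.26 CPM in WT, a log2 fold change of -0.23 ± 0.11 that did not pass (edgeR adjusted p = 0.0583) but did without HASX 1 h replicate 1 (edgeR adjusted p = 0.0466) and without HASX 4 h replicate 3 (0.024).

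**Figure D2:**
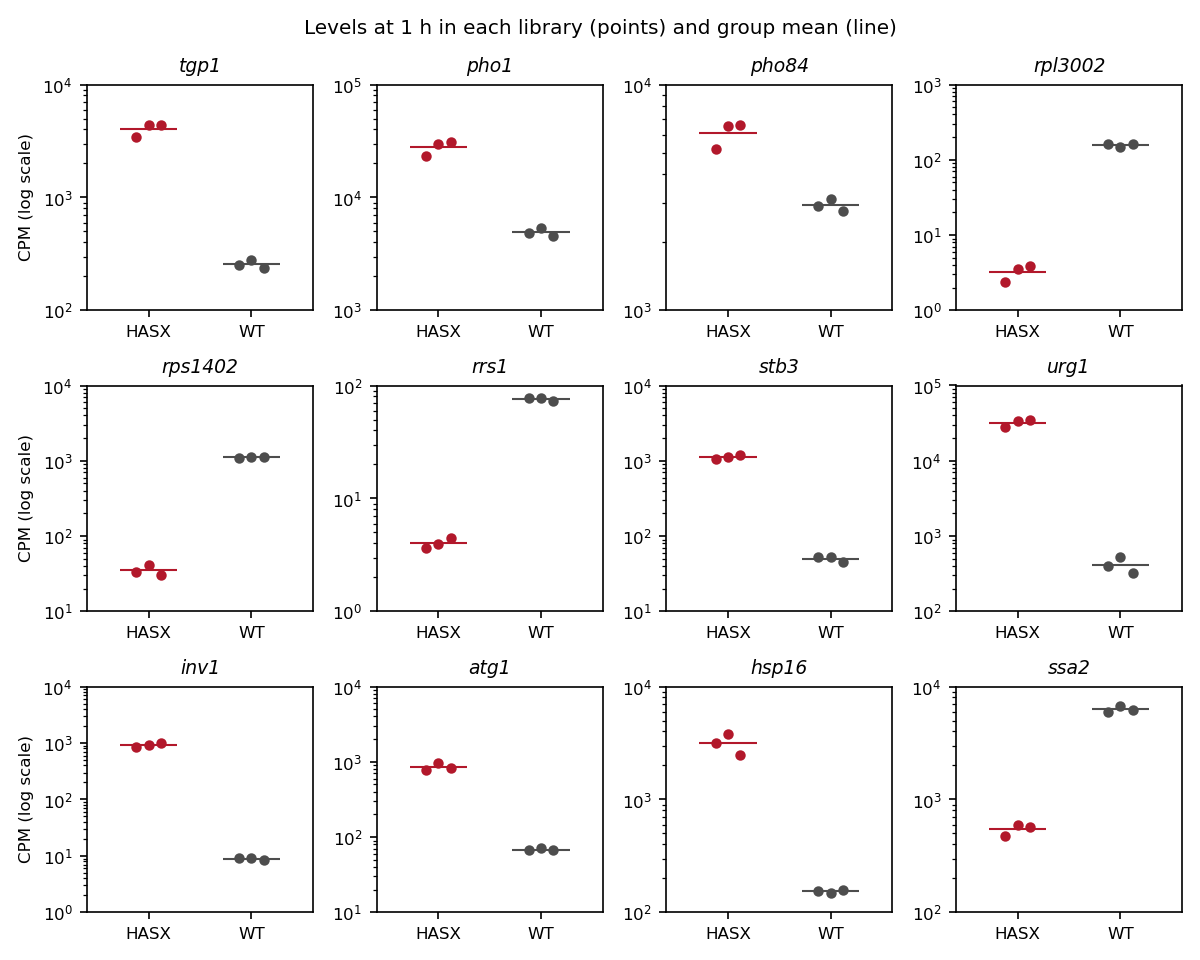
CPM (log axis) of 12 genes in each of the 3 HASX libraries, left, and the 3 WT libraries, right, at 1 h, with each point 1 library and each line the group mean; the axis range differs between panels. In all 12 genes the points of the strains do not overlap.

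The cytosolic ribosome was lower in HASX throughout. All 138 ribosomal protein genes tested fell (median log2 fold change -3.03, against -0.01 over all genes), 136 of them by at least 2-fold, and in 128 all HASX libraries lay below all 12 WT libraries. Together they held 25130, 28610 and 25870 CPM in HASX, against 161800, 158600 and 167100 CPM in WT. Their share of all counted reads was 2.66 ± 0.13% in HASX and 17.61 ± 0.57% in WT (SD, n = 3 each). The medians of the subunits were close, at -3.05 over 76 genes of the large subunit, -2.96 over 55 of the small and -3.11 over the 7 P proteins of the stalk. The smallest change was that of rpl1001 (-0.86).

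Single ribosomal protein genes show the size of the drop. The gene rpl3002, for eL30, had 2.38, 3.52 and 3.94 CPM in HASX, against 160.4, 146 and 162 CPM in WT, a log2 fold change of -5.58 ± 0.21 (edgeR adjusted p = 1.23e-14). The gene rps1402, for uS11, had 33.6, 40.8 and 30.7 CPM in HASX, against 1091, 1114 and 1132 CPM in WT, a log2 fold change of -4.99 ± 0.21 (edgeR adjusted p = 5.88e-14). In both genes every HASX library was at least 10-fold below every WT library of 1 h. Other large decreases were in rpl35A01 (-4.93), rpp203 (-4.88), rpl1502 (-4.73), rpl1202 (-4.59) and rps2601 (-4.58).

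Most fission yeast ribosomal proteins are encoded by a pair or a small set of near-identical genes, and how reads were divided between copies is not given in the sources used here. In 53 such sets with 111 genes, the copies differed in their log2 fold change by a median of 0.91, and in 23 sets by more than 1. The L10 copies were furthest apart among those named here: rpl1002 had 32.9 ± 5.01 CPM in HASX and 753 ± 13.1 CPM in WT (-4.52), and rpl1001 had 1416 ± 92.8 CPM in HASX and 2574 ± 46.6 CPM in WT (-0.86). The eL30 copies rpl3002 and rpl3001 had -5.58 and -3.44, and the uS11 copies rps1402 and rps1401 -4.99 and -2.98.

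Genes that build the ribosome fell as well, with exceptions. Of 113 ribosome biogenesis factors 91 fell, 9 rose and 13 did not pass, with a median of -1.38. The assembly factor gene rrs1 had 3.65, 3.96 and 4.45 CPM in HASX, against 77.6, 77.9 and 73.4 CPM in WT, a log2 fold change of -4.24 ± 0.16 (edgeR adjusted p = 9.25e-15). The pseudouridylation factor gene gar1 fell by 3.24 on the log2 scale, and utp6, of the small subunit processome, fell by 3.23. Among the 9 that rose were mdn1, the AAA ATPase midasin that remodels the large pre-subunit (1.56), and rrp1 (2.18). The last entered the list by its symbol, and the annotation lists it as a DNA helicase, so its place there is uncertain. Of 35 genes of RNA polymerases I and III and their factors, 19 fell, 7 rose and 9 did not pass. The shared subunit gene rpc19 fell by 3.03, and the polymerase III subunit genes rpc11 and rpc25 by 3.01 and 2.83. The gene maf1, which encodes the repressor of RNA polymerase III, rose by 2.28 ± 0.15, with 193, 217 and 226 CPM in HASX, against 43.4, 40.7 and 46.5 CPM in WT.

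Translation and mitochondrial ribosomes followed with smaller medians. Of 44 translation factor genes 38 fell, 2 rose and 4 did not pass (median -1.08). The initiation factor genes tif11 (eIF1A) and tif213 (eIF2 gamma) fell by 3.08 and 2.49 on the log2 scale, and the release factor gene erf1 by 2.38, while tif51, for eIF5A, rose by 0.84. Of 58 mitochondrial ribosomal protein genes 44 fell, 3 rose and 11 did not pass (median -0.73), and 5 rose in a fit of the 6 libraries of 1 h alone. The largest decreases were in mrp17 (-3.12) and rsm10 (-2.78), and mrpl27 rose by 2.75 ± 0.15.

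Regulators of these genes differed in both directions. The gene stb3, whose budding yeast counterpart binds the ribosomal RNA processing element in front of ribosome biogenesis genes, had 1069, 1137 and 1205 CPM in HASX, against 52.2, 52.7 and 45.4 CPM in WT, a log2 fold change of 4.5 ± 0.13 (edgeR adjusted p = 4.58e-16). Its HASX levels were above those of all 12 WT libraries. The gene sfp1, whose budding yeast counterpart activates ribosomal protein genes, fell by 1.07, with 62.9 ± 7.07 CPM in HASX and 132 ± 5.30 CPM in WT. The rRNA processing gene pol5 fell by 1.18. The list drawn up for such regulators also holds toe1, whose link to ribosome genes was not examined here and which rose by 2.76. In that list of 9 genes, 4 rose, 3 fell and 2 did not pass.

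**Figure D3:**
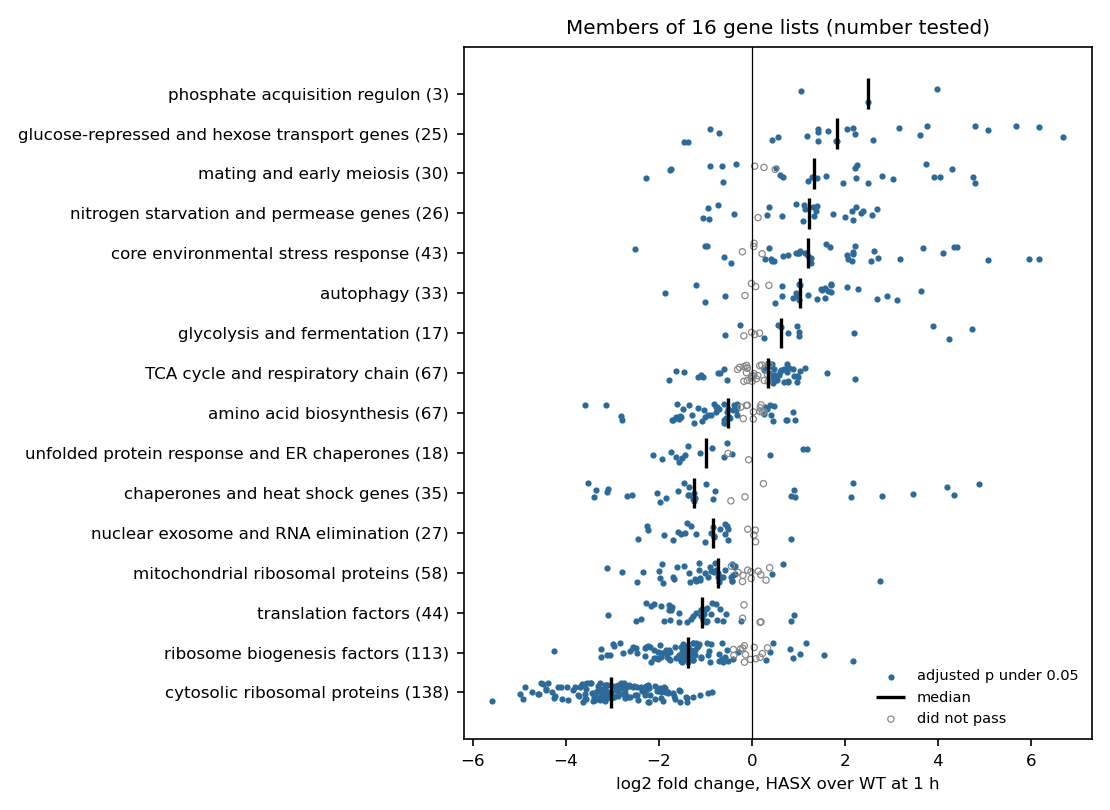
Log2 fold change of HASX over WT at 1 h for the members of 16 gene lists, 1 list per line, with filled points for genes at an adjusted p under 0.05, open points for the others and a bar at the median of the list. Cytosolic ribosomal protein genes (median -3.03) and ribosome biogenesis factors (-1.38) lie to the left of 0, glucose-repressed genes (1.82) and core environmental stress genes (1.21) to the right.

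The stress program was higher in HASX, while most chaperones were lower. Of 43 genes of the core environmental stress response, the set that fission yeast induces under many stresses, 34 rose, 5 fell and 4 did not pass, with a median of 1.21. They summed to 53060, 62080 and 59450 CPM in HASX, against 17160, 18370 and 17450 CPM in WT. The metallothionein gene zym1, a metal-binding protein, had 1801, 1734 and 1844 CPM in HASX, against 25.6, 29.5 and 31.6 CPM in WT, a log2 fold change of 5.95 ± 0.15 (edgeR adjusted p = 1.74e-16). The gene rds1 rose by 4.4, with 8475 ± 1404 CPM in HASX and 401 ± 56.1 CPM in WT, and pyp2, a tyrosine phosphatase gene that acts back on the stress MAP kinase, by 4.12. The transcription factor gene atf1, which drives the response, fell by 0.45, and the cyclophilin gene wis2 by 2.51.

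Of 35 chaperone and heat shock genes, 22 fell, 10 rose and 3 did not pass (median -1.24). The Hsp70 genes went in opposite directions. The gene ssa2 had 478, 596 and 568 CPM in HASX, against 5941, 6664 and 6181 CPM in WT, a log2 fold change of -3.52 ± 0.15. The gene ssa1 had 1108, 1444 and 939 CPM in HASX, against 153, 150.3 and 196 CPM in WT, a log2 fold change of 2.81 ± 0.19. Both differences passed (edgeR adjusted p = 4.67e-14 and 4.23e-11), and near-identical stretches of the genes could share reads. The Hsp90 gene hsp90 fell by 3.35 on the log2 scale, with 714 ± 40.4 CPM in HASX and 7292 ± 357 CPM in WT. The J-domain protein gene mas5 fell by 3.39 and the mitochondrial Hsp60 gene mcp60 by 3.10. All 8 subunit genes of the cytosolic chaperonin CCT fell, by 0.83 to 1.84. In contrast, the small heat shock gene hsp16 rose by 4.35 ± 0.22, with 3149, 3792 and 2474 CPM in HASX, against 154, 149.6 and 158 CPM in WT, and the disaggregase gene hsp104 by 2.17. All 5 members of the Hsp31 family, glyoxalases that detoxify methylglyoxal, rose, led by hsp3105 (4.88) and hsp3101 (4.2).

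Secretory folding genes and metal genes gave smaller or mixed differences. Of 18 genes of the unfolded protein response and the folding machinery of the endoplasmic reticulum, 13 fell, 3 rose and 2 did not pass (median -0.98). The Hsp70 gene bip1 fell by 1.93, its exchange factor gene sil1 by 2.13 and the disulfide isomerase gene pdi4 by 1.73. In the list for iron uptake, 5 of 15 rose, 4 fell and 6 stayed below the threshold, and 7 fell in a fit of the 6 libraries of 1 h alone. The ferrichrome synthesis genes sib1 and sib2 rose by 1.91 and 1.5, and the siderophore transporter gene str1 fell by 3.42. Of 16 copper and zinc genes 8 rose, 7 fell and 1 did not pass. The zinc transporter gene zrt1 fell by 3.09, with 64.3, 76.7 and 84.5 CPM in HASX, against 514, 398 and 1012 CPM in WT, and the copper transporter gene ctr4 by 2.63. The HASX libraries of both lay below all 12 WT libraries.

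Genes that glucose represses were mostly higher in HASX than in WT in the same medium. In the list of glucose-repressed genes and hexose transporters, 21 of 25 rose and 4 fell, with a median of 1.82. Besides inv1 and gld1, the gluconeogenic fructose-1,6-bisphosphatase gene fbp1 had 519, 524 and 481 CPM in HASX, against 14.7, 14.7 and 15.9 CPM in WT, a log2 fold change of 5.07 ± 0.17 (edgeR adjusted p = 1.54e-15). The maltase gene agl1 had 622, 626 and 497 CPM in HASX, against 10.8, 13.1 and 10.4 CPM in WT, a log2 fold change of 5.67 ± 0.21 (edgeR adjusted p = 6.57e-15). No WT library reached the HASX range in either gene. Of the 8 hexose transporters ght1 to ght8, 6 rose and 2 fell. The gene ght4 rose by 3.16, and ght5, the high-affinity glucose transporter, fell by 1.46, with 79.6 ± 15.0 CPM in HASX and 218 ± 6.60 CPM in WT.

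The genes git3, cgs1, cgs2 and pka1, of the cAMP pathway that signals glucose, all rose, with log2 fold changes between 1.82 and 4.8. This group was assembled after its values were seen and does not cover the pathway. The gene cgs1, for the regulatory subunit that holds protein kinase A inactive, had 272, 229.7 and 253 CPM in HASX, against 8.93, 9.30 and 8.91 CPM in WT, a log2 fold change of 4.8 ± 0.13. The gene pka1, for the catalytic subunit, had 309, 319.9 and 315 CPM in HASX, against 88.1, 96.6 and 82.2 CPM in WT, a log2 fold change of 1.82 ± 0.13. Both lay above all 12 WT libraries, and the regulatory subunit differed more. The glucose receptor gene git3 rose by 2.6.

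Of 17 genes of glycolysis and fermentation, 11 rose, 2 fell and 4 did not pass (median 0.63). Only 1 fell with HASX replicate 1 or any 1 of the WT libraries of 1 h left out, and likewise with RLE size factors, DESeq2 or the replicate number as a block. The largest increases were in the pyruvate decarboxylase gene pdc201 (4.73), the enolase gene eno102 (4.25) and the glyceraldehyde 3-phosphate dehydrogenase gene gpd3 (3.89). Another pyruvate decarboxylase gene, pdc202, rose by 2.19. The phosphoglycerate kinase gene pgk1 rose by 1.02 and the phosphoglycerate mutase gene gpm1 fell by 0.58. Of 67 genes of the TCA cycle and the respiratory chain, 34 rose, 10 fell and 23 did not pass (median 0.35), and 17 fell with library totals in place of TMM scaling. The malate dehydrogenase gene mdh1 rose by 2.23, with 1488 ± 129 CPM in HASX and 318 ± 9.01 CPM in WT, and the succinate-CoA ligase gene lsc2 by 1.61, while the complex IV assembly gene cox20 fell by 1.62.

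Nitrogen starvation genes and autophagy genes were mostly higher in HASX. Of 26 nitrogen starvation and permease genes, 20 rose, 5 fell and 1 did not pass (median 1.23). The GABA transaminase gene uga1 had 114, 133 and 122 CPM in HASX, against 18.6, 20.1 and 18.7 CPM in WT, a log2 fold change of 2.69 ± 0.12 (edgeR adjusted p = 6.71e-14). The amino acid permease gene meu22 rose by 2.58, the oxygenase gene isp7 by 2.38 and the vacuolar protease gene isp6 by 2.16. For the last, not all HASX libraries lay above all 12 WT libraries. The GATA factor gene gaf1, which controls nitrogen-regulated genes, had 181 ± 7.55 CPM in HASX and 165 ± 3.49 CPM in WT and did not pass (edgeR adjusted p = 0.229).

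Of 33 autophagy genes 25 rose, 4 fell and 4 did not pass (median 1.04), and 22 were above all 12 WT libraries. The kinase gene atg1, which starts autophagy, had 785, 964 and 817 CPM in HASX, against 66.9, 70.9 and 67.0 CPM in WT, a log2 fold change of 3.65 ± 0.13 (edgeR adjusted p = 6.13e-15). The mitophagy receptor gene atg43 had 642, 731 and 737 CPM in HASX, against 80.6, 79.8 and 81.2 CPM in WT, a log2 fold change of 3.13 ± 0.10. Both lay above every WT library. The sorting nexin gene atg20 rose by 2.9 and the ubiquitin-like atg8 by 1.7, and atg5, part of the conjugation machinery, fell by 1.01. Of 28 genes of the TOR pathway, the nutrient-sensing kinase network, 13 rose, 10 fell and 5 did not pass. The S6 kinase gene psk1 rose by 1.3, the kinase gene tor1 by 0.58 and the gene tsc1 by 1.35. The Rag GTPase gene gtr1 fell by 2.43 and npr2, of the complex that restrains TORC1, by 1.78. Of the 3 Ecl genes, small proteins that extend chronological lifespan, ecl3 rose by 4.69 ± 0.17, ecl1 rose by 1.6 and ecl2 fell by 0.37. The first is a near neighbour of pho84, 2 genes upstream and on the opposite strand.

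Genes of mating and early meiosis were mostly higher in HASX. Of 30 genes of mating and early meiosis, 20 rose, 7 fell and 3 did not pass (median 1.35). The meiotic transcription factor gene mei4 had 31.2, 43.5 and 24.9 CPM in HASX, against 1.35, 1.65 and 0.697 CPM in WT, a log2 fold change of 4.74 ± 0.28 (edgeR adjusted p = 7.07e-12). The meiotic cohesin genes rec8 and rec11 rose by 4.8 and 4.31, with 9.34 ± 1.36 CPM in HASX and 0.328 ± 0.104 CPM in WT for rec8. All 3 were above 7 CPM in every HASX library and below 2 CPM in every WT library of 1 h. The genes ste11 and mei2, whose products start sexual differentiation and meiosis, rose by 0.51 and 0.6 and stayed within the WT range. The arrestin gene ste7 rose by 2.81.

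Genes of the mating types were examined because both strains are labelled h-, the M mating type. Of 7 M-cell genes 2 rose, 2 fell and 3 did not pass, and they summed to between 212 and 229 CPM in HASX and between 336 and 391 CPM in WT. Of 5 P-cell genes 3 rose and 2 did not pass, with sums between 764 and 828 CPM in HASX and between 668 and 680 CPM in WT. The strains did not overlap in either sum, but mfm2 alone took much of the M-cell sum in WT and little of it in HASX. The lower M-cell sum therefore does not describe the other M-cell genes, and the median log2 fold change over the 7 was -0.004. The M-factor gene mfm2 had 2.17, 3.89 and 7.49 CPM in HASX, against 193, 222 and 189 CPM in WT, and the pheromone receptor gene mam2 fell by 1.90. The P-cell receptor gene map3 rose by 1.37, the agglutinin gene map4 by 0.93 and the P-factor gene map2 by 1.41. Among the others, the adhesin gene mam3 rose by 1.08 and the P-factor protease gene sxa2 by 1.17.

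The uracil-regulatable genes, which respond to uracil in the medium, were far higher in HASX. The genes urg1, urg2, urg3 and uck2 all rose, by 6.27, 5.54, 3.42 and 5.03 on the log2 scale. The gene urg1, which encodes a GTP cyclohydrolase II-like enzyme, had 28162, 34211 and 34334 CPM in HASX, against 402, 524 and 325 CPM in WT (edgeR adjusted p = 1.55e-15). The phosphoribosyltransferase gene urg2 had 16313, 20219 and 22238 CPM in HASX, against 416, 512 and 337 CPM in WT (edgeR adjusted p = 4.11e-15). In both genes every HASX library was above every WT library of any time. WT levels of urg1 moved with time, at 7250.5 ± 1383 CPM at 0 h, 417 ± 100.02 at 1 h, 2823 ± 374 at 2 h and 5330.3 ± 166 at 4 h (SD, n = 3 each). The cytidine deaminase gene cdd1 rose by 4.07.

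Other genes of pyrimidine synthesis went the other way. The genes ura1, ura2, ura3, ura5 and ura6 all fell, by 0.85 to 2.84 on the log2 scale. The dihydroorotate dehydrogenase gene ura3 had 82.2, 95.9 and 77.9 CPM in HASX, against 609, 603 and 593 CPM in WT, a log2 fold change of -2.82 ± 0.11. The orotate phosphoribosyltransferase gene ura5 had 35.4, 36.1 and 39.5 CPM in HASX, against 270.4, 263 and 262 CPM in WT, a log2 fold change of -2.84 ± 0.12. The groups did not overlap in either gene (edgeR adjusted p = 1.44e-14 and 3.22e-14). The gene ura4 is the marker in HASX and had no reads in WT, and its part in the levels of the urg and ura genes was not tested. With ura4 included, 8 of 14 genes of pyrimidine synthesis and salvage rose and 6 fell.

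Amino acid biosynthesis genes were mostly lower in HASX, and other biosynthetic lists were mixed. Of 67 amino acid biosynthesis genes, 45 fell, 11 rose and 11 did not pass (median -0.51). The lysine pathway gene lys7 fell by 3.14 on the log2 scale, the proline gene pro3 by 2.82 and the methylenetetrahydrofolate reductase gene met9 by 2.80. The adenylyl-sulfate kinase gene met14, which belongs to sulfate assimilation, had 35.4, 41.2 and 36.5 CPM in HASX, against 460.0, 449.6 and 443 CPM in WT, a log2 fold change of -3.58 ± 0.13 (edgeR adjusted p = 3.54e-15). The sulfite reductase gene sir1 fell by 1.81, and over the 15 genes of sulfate assimilation and methionine 8 fell, 6 rose and 1 did not pass. Of 16 purine genes 8 fell, 3 rose and 5 did not pass, with apt1 furthest down, and the first enzyme of the pathway, ade4 (-2.4), and ade1 (-1.28) also lower. Of 10 thiamine-regulated genes, 3 rose, 4 fell and 3 did not pass, and pdc202 and pho4, named above, belong to this list. The pyrimidine precursor synthase gene nmt1, known for its repression by thiamine, had 9.63, 9.68 and 9.23 CPM in HASX, against 0.586, 0.213 and 0.299 CPM in WT, a log2 fold change of 4.64 ± 0.29 (edgeR adjusted p = 1.45e-11), and the thiamine synthesis gene thi4 fell by 1.27.

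Of 32 genes of sterol synthesis and its Sre1 regulation, 16 fell, 11 rose and 5 did not pass, counts near the shares over all protein-coding genes. The farnesyl diphosphate synthase gene fps1 fell by 2.15 and the sterol methyltransferase gene erg6 by 1.95, and the fumarate reductase gene osm1 rose by 1.57. Of 26 genes of fatty acid and phospholipid synthesis, 15 fell, 6 rose and 5 did not pass (median -0.55). The phosphatidylethanolamine methyltransferase gene cho2 had 153, 172 and 245 CPM in HASX, against 841, 850.4 and 821 CPM in WT, a log2 fold change of -2.14 ± 0.15. The choline kinase gene eki1 fell by 2.08, and the lipin gene ned1, whose product makes diacylglycerol from phosphatidate, had 296, 300.4 and 306 CPM in HASX, against 65.5, 70.8 and 66.5 CPM in WT, and rose by 2.15 ± 0.08. The phosphatidate phosphatase gene was above all 12 WT libraries and the methyltransferase gene below them. Of 10 detoxification genes, for transporters and also a transcription factor and a quinone dehydrogenase, 7 rose, 2 fell and 1 did not pass. They were led by mfs1 (4.12), followed by the spermine transporter gene caf5 (1.0) and the vacuolar amino acid transporter gene fnx1 (0.96).

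Cell cycle genes differed in both directions. Of 33 mitosis and septation genes, 16 fell, 6 rose and 11 did not pass (median -0.40). The number that fell is near the share over all protein-coding genes, 2188 of 5005. The endoglucanase gene eng1, which opens the septum between daughter cells, had 60.1, 83.5 and 93.3 CPM in HASX, against 556, 595 and 562 CPM in WT, a log2 fold change of -2.86 ± 0.15 (edgeR adjusted p = 1.04e-12). The anaphase-promoting complex activator gene slp1 fell by 2.35, and the septin ring gene mid2 fell by 1.72. Of 25 genes of the G1/S factor MBF and its targets, 5 rose, 7 fell and 13 did not pass, and 12 fell in a fit of the 6 libraries of 1 h alone. The replication licensing gene cdc18 fell by 1.73, the ribonucleotide reductase gene cdc22 by 1.89, and mik1, a kinase gene that delays mitosis, fell by 3.23. The repressor gene whi5 had 57.1, 65.2 and 55.2 CPM in HASX, against 6.63, 7.07 and 8.02 CPM in WT, a log2 fold change of 3.03 ± 0.13, and the MBF subunit gene res2 rose by 2.23. The repressor was above all 12 WT libraries.

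Of 10 core histone and H2A.Z genes, 6 fell, 3 rose and 1 did not pass. All 3 histone H4 genes fell, among them hhf1 (-1.43) and hhf3 (-1.06), the H2A.Z gene pht1 fell by 1.06 and the H3 gene hht3 rose by 0.88. Reads of the H3 and of the H4 copies may be shared. Of 22 cell wall genes, 11 fell, 8 rose and 3 did not pass, counts near the shares over all protein-coding genes. The glucanosyltransferase gene gas4 fell by 3.58, the alpha-glucan synthase gene mok13 rose by 2.46 and the glucanase gene bgl2 by 2.09. The 3 essential beta-glucan synthase genes bgs1, bgs3 and bgs4 fell by 0.88 to 1.17. This group was formed after its values were seen and leaves out bgs2, a further beta-glucan synthase gene of the list. Of 15 genes for flocculins, their regulators and the mating adhesins mam3 and map4, described above, 10 rose, 2 fell and 3 did not pass. Without HASX 1 h replicate 1, 1 of them fell. The MADS-box activator gene mbx2 had 85.5, 99.7 and 87.8 CPM in HASX, against 15.9, 17.8 and 13.8 CPM in WT, and rose by 2.52 ± 0.16, the flocculin gene pfl5 rose by 2.07 and gsf2 by 1.33. The activator and pfl5 lay above all 12 WT libraries.

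RNA decay genes were mostly lower in HASX. Of 27 genes of the nuclear exosome and RNA elimination machinery, 22 fell, 1 rose and 4 did not pass (median -0.82). All 11 core subunits of the exosome, the complex that degrades RNA from its 3' end, fell by 0.50 to 2.44. The cap subunit gene rrp4 had 6.35, 7.48 and 8.22 CPM in HASX, against 42.4, 40.5 and 36.6 CPM in WT, a log2 fold change of -2.44 ± 0.16 (edgeR adjusted p = 4.04e-11). The subunit gene csl4 fell by 1.88, the exosome subunit gene cti1 by 2.22, and the nuclease genes dis3 and rrp6 by 1.44 and 1.31. For rrp6, not all HASX libraries lay below all 12 WT libraries. Of 23 genes of transcription termination and 3' end formation, the machinery through which inositol pyrophosphates act on the phosphate regulon in this yeast, 8 rose, 4 fell and 11 did not pass (median 0.10). With library totals in place of TMM scaling, which shifts the median of all genes by -0.107, 3 of them rose, and 7 fell without HASX 4 h replicate 3 or in a fit of the 6 libraries of 1 h alone. The phosphatase gene dis2 had 149, 158 and 163 CPM in HASX, against 628, 623 and 594 CPM in WT, a log2 fold change of -1.97 ± 0.13 (edgeR adjusted p = 4.01e-11). The cleavage factor genes ctf1 and pta1 fell by 1.59 and 1.56, and these 3 were below all 12 WT libraries. Of 35 proteasome genes 14 fell, 8 rose and 13 did not pass, with rpn12 (-1.73), scl1 (-1.4) and rpt4 (-1.33) among the decreases. The largest increase was that of ump1 (1.055). The number that fell is near the share over all protein-coding genes, 2188 of 5005.

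The shares of genes called differed between classes of RNA. Of 1132 long non-coding RNAs tested, 531 (46.9%) were higher in HASX by at least 2-fold and 131 (11.6%) lower, with a median of 1.12. Of 5005 protein-coding genes, 896 (17.9%) were higher and 1223 (24.4%) lower, with a median of -0.19. The median level of a long non-coding RNA was 4.88 CPM in HASX and 2.21 CPM in WT, and non-coding genes took 2.00 ± 0.19% of reads in HASX and 1.01 ± 0.01% in WT (SD, n = 3 each). Among the 1559 genes of lowest mean level, 0.207 to 13.4 CPM, 60.5% were non-coding, 34.4% were called higher and 18.4% lower, so class and level go together here. Of 1823 non-coding identifiers, 1203 were tested. The filter on low counts keeps a gene with enough reads in the libraries of 1 group. A quiet RNA could thus enter through HASX alone, or through WT alone. How far this shapes the shares called and the median of the class was not tested. The tables do not say on which strand reads were counted, so reads of an antisense RNA and of the gene it overlaps cannot be told apart.

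**Figure D4:**
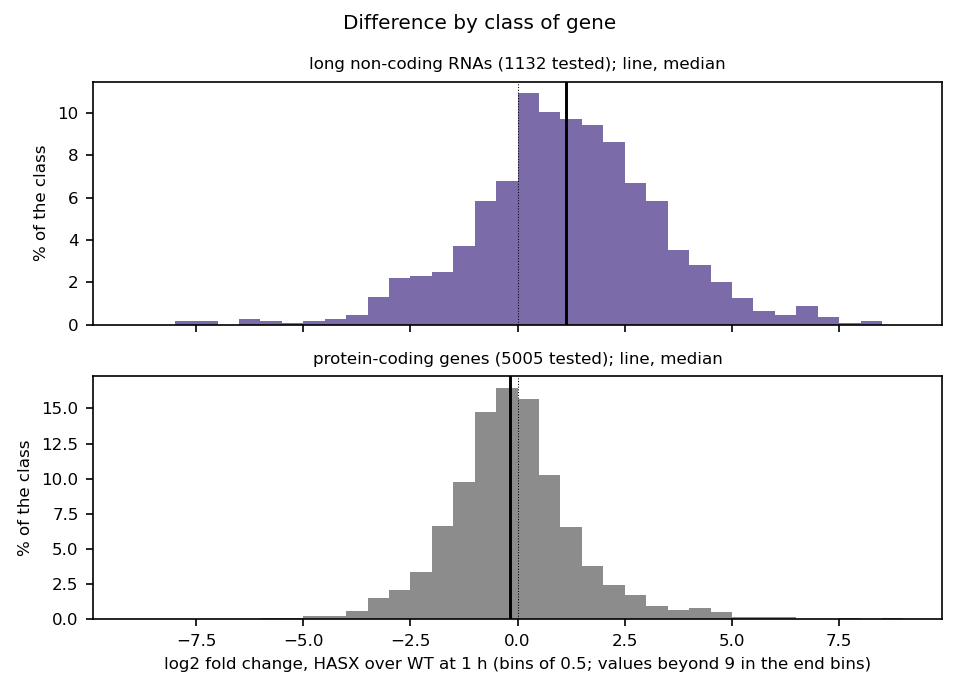
Distribution of the log2 fold change of HASX over WT at 1 h in long non-coding RNAs (top) and protein-coding genes (bottom), as the percentage of each class in bins of 0.5, with a line at the median. The long non-coding RNAs have their median at 1.12 and the protein-coding genes at -0.19. Genes with enough reads in only 1 strain are included, since the filter on low counts keeps them.

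Among non-coding RNAs of at least 10 CPM on average and away from the altered loci, the largest increase was in SPNCRNA.892, with 624, 948 and 408 CPM in HASX, against 3.16, 2.60 and 2.44 CPM in WT. The meiotic RNA sme2, which gathers the elimination factor Mmi1 in meiosis, had 102, 126 and 127 CPM in HASX, against 0.676, 0.638 and 1.44 CPM in WT, a log2 fold change of 7.0 ± 0.26 (edgeR adjusted p = 9.62e-15). Both were present in all HASX libraries and below 4 CPM in every WT library of 1 h. SPNCRNA.1223 and SPNCRNA.1364 rose by 7.35 and 7.2. By the same minimum, the largest decreases were in SPNCRNA.1461 (-7.6), SPNCRNA.1096 (-3.48), SPNCRNA.1476 (-3.34) and the polyadenylated RNA prl53, with 317, 342 and 362 CPM in HASX, against 3210.0, 3076 and 3030.2 CPM in WT (-3.19). Small classes of RNA were few among the genes tested: of 40 snoRNAs 14 were higher and 10 lower, of 21 rRNA genes 14 and 1, and of 6 tRNA genes 4 and 1. Their median levels were 1.28, 0.919 and 0.636 CPM in HASX and 1.31, 0.276 and 0.0241 CPM in WT, in the same order. The limit set by the filter, given above, holds for these classes as well.

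Most of the genes called at 1 h were also called between the strains later. Of the 1472 higher genes, 1218 were higher at 2 h, which is 82.7% of the 1 h list and 76.3% of the 2 h list, where 25.6% of all genes tested were called higher. Of the 1371 lower genes, 1090 were lower at 2 h (79.5% and 73.5%, against 23.8% of all). At 4 h the shared genes were 1022 higher (69.4% and 66.3%, against 24.7% of all) and 847 lower (61.8% and 73%, against 18.6%). Opposite calls numbered 1 and 0 at 2 h, and 5 and 17 at 4 h. Without HASX 4 h replicate 3, the genes shared with 4 h were 1005 higher (65.2% of the 1 h list and 74.7% of the 4 h list, against 21.5% of all) and 859 lower (61.4% and 72.6%, against 18.9%), and opposite calls 11 and 9.

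The WT libraries of 0 and 4 h are not among those compared at 1 h. From 0 to 4 h without phosphate, 509 genes were higher in WT (8.16%) and 566 lower (9.08%). Of the 509, 391 (76.8%) were among the genes higher in HASX at 1 h, which is 26.6% of that list. Of the 566, 356 (62.9%) were among the genes lower in HASX at 1 h, which is 26% of that list. The reverse combinations held 26 genes higher in HASX and lower in WT at 4 h, and 15 lower in HASX and higher in WT at 4 h. Ribosomal protein genes took 2.66 ± 0.13% of the reads in HASX at 1 h, against 6.77 ± 0.35% in WT at 4 h.

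The distance of the lists between the strains varied with time. The median log2 fold change of ribosomal protein genes was -3.03 at 1 h, -3.23 at 2 h and -2.16 at 4 h. That of ribosome biogenesis factors was -1.38 at 1 h, -0.76 at 2 h and -0.08 at 4 h, and that of nitrogen starvation genes 1.23, 0.30 and 0.21 at the same times. Without HASX 4 h replicate 3, an alternative chosen for the 4 h medians and gene values after seeing the data, the 4 h medians of these lists were -2.03, -0.03 and 0.33 in the same order. WT itself moved in between, by -1.49 for ribosomal protein genes and -1.001 for biogenesis factors from 0 to 4 h. The medians are descriptions, since the difference between times was tested gene by gene.

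The genotype difference at 2 h exceeded that at 1 h by at least 2-fold in 305 genes (4.89%) and was lower in 260 (4.17%), tested as an interaction. The urg genes had the largest interactions among genes called at 1 h. The gene urg1 had a log2 fold change of 6.27 at 1 h, 2.09 at 2 h and 1.32 at 4 h. HASX levels of urg1 were 11993 ± 324 CPM at 2 h and 13290.0 ± 1816 at 4 h (13622 without replicate 3), against 2823 ± 374 and 5330.3 ± 166 CPM in WT. The tgp1 difference was 2.52 at 2 h and 1.98 at 4 h, and the hsp16 difference was 7.02 at 2 h. The pho84 difference was 0.43 at 2 h and 0.85 at 4 h. Without HASX 4 h replicate 3, the differences at 4 h were 1.39 for urg1, 2.11 for tgp1 and 0.97 for pho84.

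**Figure D5:**
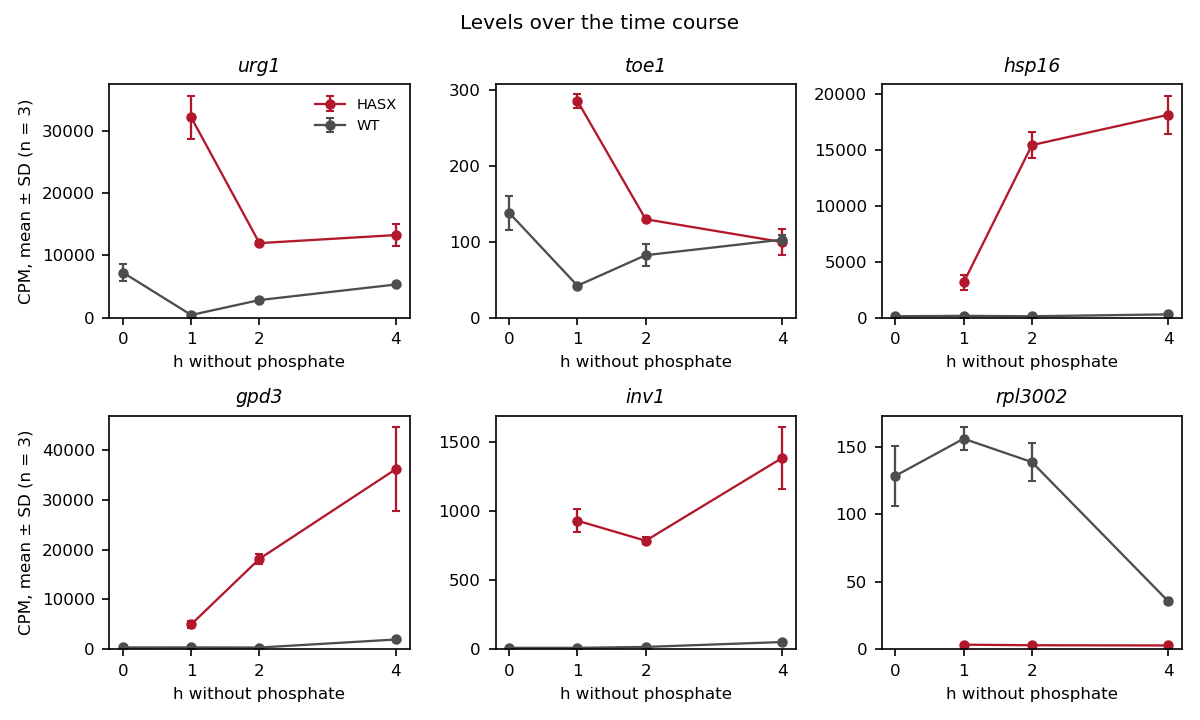
Mean CPM by hours without phosphate for 6 genes, HASX in red (from 1 h) and WT in grey, with error bars of 1 SD (n = 3). Levels of urg1 and toe1 in HASX are highest at 1 h, those of hsp16 and gpd3 highest at 4 h, and rpl3002 in HASX stays far below WT at each time.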

How the data were processed

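Polyadenylated RNA, extracted with hot acid phenol, was made into stranded paired-end libraries and sequenced on a NovaSeq X Plus, per the labels' protocols. The deposited tables hold read counts per gene for 21 libraries in 7 groups of 3. HISAT2 2.1.0, SAMtools, HTSeq 0.10.0, DESeq2 and the build ASM294v2 appear in the submitters' processing notes, and the strand setting of the counting is not given in the sources used here. Deposited tables of the authors' comparisons give log2 fold changes. Those of HASX at 1 h and of WT at 1 h are both against WT at 0 h. The difference between these 2 columns of the authors' deposited tables correlated at 0.9998 with the log2 fold change of HASX over WT computed here, across 6234 genes, with a median difference of -0.0524 (computed here minus the authors') and 0 called genes of opposite sign.

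From the deposited counts, edgeR 4.0.16 in R 4.3.3 (TMM, filterByExpr, quasi-likelihood test, 1 mean per group, all 21 libraries, 14 residual degrees of freedom) gave log2 fold changes of HASX over WT, with Benjamini-Hochberg adjustment over 6234 genes. The filter removed 754 of 6988 identifiers. SE is the absolute log2 fold change over the square root of F. The common biological coefficient of variation was 0.212. DESeq2 1.42.0 and limma 3.58.1 were also loaded, DESeq2 as an alternative test. Names, classes and gene order came from a RefSeq table of another build, ASM294v3 (6836 identifiers matched by locus tag, 12 by synonym, 140 not matched), so no coordinates are given, and promoter motifs were not analysed. The floor of 3 reads per library is a fixed setting, and a fold change given against it covers no spread between libraries.

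The members and the 40 gene lists were chosen with earlier results of these data known. Named genes are the altered genes and the regulon, the 12 higher and 12 lower coding and 6 higher and 4 lower non-coding genes with the largest changes (adjusted p under 0.05, at least 10 CPM on average, groups not overlapping), up to 3 per list with the largest changes, neighbours of the altered and regulon genes that passed, and 4 interactions with time. Named outside this rule, after their values were seen, were rpl1001, rpl1002, rpl3001, rps1401, hsp90, ssa1, ssa2, mas5, hsp104, mcp60, rds1, pyp2, wis2, atf1, cgs1, git3, pka1, ght4, ght5, maf1, mdn1, rrp1, atg8, atg5, mam3, map2, ura3, ura5, cdd1, vtc4, pho8, pho842, arg82, kcs1, ipk1, plc1, mei2, ste11, rec8, rrp6, dis3, cdc18, cdc22, gaf1, psk1, tor1, sfp1, tif51, hht3, nc-tgp1, pgk1, gpm1, isp6, nmt1, bgs1, bgs3, bgs4, cgs2, ura1, ura2 and ura6. The subgroups of lists (CCT, Hsp31, ght, cAMP, urg, ura, H4, exosome core, bgs) were also formed then.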

Additional observations from a re-analysis of the deposited data

Results flagged for a closer look

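The genotype difference (log2 fold change of HASX over WT) differed between 2 h and 1 h by at least 2-fold in 35 of the genes named above, tested as an interaction in edgeR at an adjusted p under 0.05. Values are the difference at 2 h minus that at 1 h, on the log2 scale, and no explanation was weighed.

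The difference was smaller or more negative at 2 h in 22 genes. The uracil-regulatable genes led, with urg1 at -4.19, urg2 at -3.82, urg3 at -3.27 and uck2 at -3.27, and the cytidine deaminase gene cdd1 had -1.40. Among regulators, the values were -2.11 for toe1, -2.04 for ecl1 and -1.44 for stb3. Among transporters and nutrient genes they were -1.46 for tgp1, -1.05 for inv1, -1.61 for isp7, -1.21 for mfs1, -1.19 for git3 and -1.04 for ght5. Among surface, septum and mating genes they were -1.31 for mam2, -1.15 for map3, -1.14 for mam3, -1.12 for gsf2, -1.22 for eng1 and -1.04 for mid2. The lipid gene cho2 had -1.78 and the calcipressin gene rcn1 -1.02.

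The difference was larger or less negative at 2 h in 13 genes. Heat shock and stress genes had 2.67 for hsp16, 2.42 for ssa1, 1.32 for hsp3105, 1.47 for zym1, 1.1 for ddr48 and 1.13 for wis2. The glycolytic genes gpd3 and pgk1 had 1.98 and 1.27. The thiamine-repressed gene nmt1 had 1.79. The others were cum1 with 1.77, rec8 with 1.62, rrp6 with 1.09 and the non-coding RNA SPNCRNA.892 with 1.08.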

How the results depend on the processing

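The counts of 1472 higher and 1371 lower genes stayed within 1.5 times under RLE size factors (1519 and 1324), library totals (1341 and 1511), no filter (1484 and 1384), a fit of the 6 libraries alone (1492 and 1379), DESeq2 (1454 and 1310) and without HASX 4 h replicate 3 (1541 and 1398). Leaving out 1 compared library at a time gave 1421 to 1457 and 1317 to 1366. No gene had opposite calls under any of these 13 settings. Without the 2-fold minimum the counts were 2267 and 2358, and the genes shared with 2 h were 1879 and 2003, with 4 h 1729 and 1800, and with WT at 4 h against 0 h 1065 and 998, since more genes were called in each comparison. Library totals lowered the median of all genes by 0.107, and 47% of calls were then higher, against 51.8%.

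Replicate numbers did not pair the samples: the deviations of same-numbered HASX and WT libraries correlated at -0.096, 0.0226 and -0.0919, and 0 of 3 correlated best with its own number. With the replicate number as a block, 1461 genes were higher and 1373 lower.

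Of 202 named genes under 13 settings, none changed sign, 4 results lost their call (all ipk1, named above) and 11 gained one. The gains were asp1 in 5 settings, kcs1 in 5 (adjusted p = 0.00472 to 0.0466) and nc-tgp1 in the fit of the 6 libraries (edgeR adjusted p = 0.0244). Of the list values, 1538 of 1560 did not move. For a count of members that means within 1.5 times, and for a median an unchanged sign. At these depths 754 of 6988 identifiers had too few reads to be tested. The cause of these shifts was not tested.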

Other observations

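Values for genes near chromosome ends were set beside the rest, a grouping chosen after the data were seen and not tested. Among the 20 annotated genes next to each end, 8 of 16 tested on chromosome I (50%) were higher in HASX by at least 2-fold, 7 of 15 on chromosome II (46.7%) and 9 of 31 on chromosome III (29%). Elsewhere the shares were 23.6%, 21.6% and 26.6% on the same chromosomes. Lower in HASX were 2 of 16 at the ends of chromosome I (12.5%), 2 of 15 on chromosome II (13.3%) and 10 of 31 on chromosome III (32.3%), against 22.9%, 23.1% and 17.5% elsewhere.

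Besides ura4, some genes had no reads in 1 strain at 1 h, 17 in all. SPAPB1A11.02 had 168, 134 and 170 reads in HASX and 0 in each WT library, at least 63.7-fold higher in HASX against a floor of 3 reads per library. SPAC2H10.04 had 71, 121 and 75 reads in HASX and 0 in WT (at least 37.9-fold), and SPCC191.10, the identifier just before that of inv1, had 118, 46 and 97 reads in HASX and 0 in WT (at least 33.9-fold). In the other direction, SPBC13G1.15c had 0 reads in HASX and 33, 27 and 36 reads in WT, at least 8.61-fold lower in HASX.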
